A study of Mus musculus with 18 samples.

Results

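The genes described here are 28 members of the sterol and fatty acid synthesis programme that SREBP transcription factors control, from Hmgcs1 at the entry of the mevalonate pathway to the desaturases Scd1 and Scd2. They were chosen by gene symbol, with earlier results of these data known. Each symbol matched 1 row of a count table of 55487 gene identifiers annotated on GRCm38. RNA was sequenced from BV2 cells, an immortalised mouse microglial line, exposed for 12 or 24 h to oxyhemoglobin at 10 µM, a blood pigment that carries oxygen, and from untreated cells (0 h). At each time the cells were split into a nuclear and a cytoplasmic RNA fraction, which gave 6 groups of 3 libraries, 18 in all. All groups came from the same line in medium with serum, and no genotype differed between them. The table holds 1 mean per group, so no spread between libraries could be computed and no test across libraries was possible.

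Cells make cholesterol from acetyl-CoA by way of mevalonate, isoprenoid diphosphates, squalene and lanosterol. When sterol in the endoplasmic reticulum is low, Scap escorts the SREBP precursors to the Golgi, where proteases release the active transcription factors. When sterol is abundant, Insig proteins hold Scap back, and microglia also take up sterol in the debris they engulf.

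SREBPs bind sterol regulatory elements in promoters, often beside sites for the factors NF-Y and Sp1. Of the 28 members, 22 had promoter windows in RefSeq's table for GRCm38.p6, each running from 250 bases before to 50 bases after an annotated start. Fdps, Fdft1, Sqle, Scd1, Scd2 and Stard4 were not matched. On both strands, the windows were searched for TCACNCCA (a core of the sterol regulatory element), CCAAT (the NF-Y box), GGGCGG (the Sp1 box) and CACGTG (an E-box). CCAAT was found in 20 of the 22 members (90.9%), against 41.1% of all 27025 genes with windows. GGGCGG was likewise found in 20 members (90.9%), against 38.2% of all genes. CACGTG was found in 5 members (22.7%), against 8.09% of all genes. TCACNCCA was found in 3 members (13.6%), Hmgcs1, Msmo1 and Srebf2, against 4.97% of all genes. In windows from 150 bases before the start it was found in 1 member (4.55%), against 3.33% of all genes. These matches describe letters in a window and were not tested as binding sites, and base composition was not matched between the members and all genes. Upstream stretches were taken for Hmgcs1 and for the members with windows whose nuclear counts were over 2-fold higher at 12 h. The latter were Lss, Nsdhl, Hsd17b7, Insig1, Idi1 and Cyp51. The 5 stretches that hold matches to TCACNCCA, CCAAT or CACGTG are printed. That 4 of the genes they precede were higher follows from this choice. CCAAT was also found in members under 2-fold there, such as Mvk, Pmvk, Sc5d and Dhcr7. A link between motifs and the change in counts was not tested. The nuclear counts of Hmgcs1 moved little, and its cytoplasmic counts were too low to compare between times. The stretches come from RefSeq on GRCm38.p6, are written 5′ to 3′ on the gene's strand and end before its most upstream annotated start. Capitals mark matches to TCACNCCA, CCAAT or CACGTG on either strand, so that ATTGG is CCAAT on the other strand. They lie at chr13:119690101-119690350 on the plus strand (Hmgcs1), chr10:76531355-76531587 on the plus strand (Lss), chrX:72918271-72918520 on the plus strand (Nsdhl), chr1:169969242-169969455 on the minus strand (Hsd17b7) and chr5:28071162-28071362 on the plus strand (Insig1).
Hmgcs1: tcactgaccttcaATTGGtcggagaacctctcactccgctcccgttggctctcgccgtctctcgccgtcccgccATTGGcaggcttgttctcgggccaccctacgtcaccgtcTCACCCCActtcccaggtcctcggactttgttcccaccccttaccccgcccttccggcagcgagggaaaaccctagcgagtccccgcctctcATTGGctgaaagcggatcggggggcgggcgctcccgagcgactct
Lss: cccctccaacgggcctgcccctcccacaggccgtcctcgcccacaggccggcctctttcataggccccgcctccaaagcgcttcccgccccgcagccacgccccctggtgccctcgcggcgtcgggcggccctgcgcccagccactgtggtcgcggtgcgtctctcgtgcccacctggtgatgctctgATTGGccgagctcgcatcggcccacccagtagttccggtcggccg
Nsdhl: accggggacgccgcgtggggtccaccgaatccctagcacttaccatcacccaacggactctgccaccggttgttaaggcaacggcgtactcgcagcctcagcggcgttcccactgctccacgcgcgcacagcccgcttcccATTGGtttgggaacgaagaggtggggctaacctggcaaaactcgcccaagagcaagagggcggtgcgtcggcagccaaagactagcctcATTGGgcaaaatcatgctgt
Hsd17b7: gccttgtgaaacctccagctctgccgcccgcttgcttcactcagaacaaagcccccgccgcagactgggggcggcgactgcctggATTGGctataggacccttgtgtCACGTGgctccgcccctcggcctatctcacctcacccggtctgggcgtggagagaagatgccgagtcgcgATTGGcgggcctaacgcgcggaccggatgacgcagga
Insig1: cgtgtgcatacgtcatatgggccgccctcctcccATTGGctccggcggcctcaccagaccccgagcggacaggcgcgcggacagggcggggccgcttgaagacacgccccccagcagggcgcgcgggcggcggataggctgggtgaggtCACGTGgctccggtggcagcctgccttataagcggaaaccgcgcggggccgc
The printed Hmgcs1 stretch holds 1 TCACNCCA match and 3 CCAAT matches. The Nsdhl stretch holds 2 CCAAT matches and the Lss stretch 1. The Hsd17b7 stretch holds 2 CCAAT matches and 1 CACGTG, and the Insig1 stretch holds 1 of each. The same upstream stretches of Idi1 and Cyp51, which were also higher in nuclear RNA, hold 0 matches to these 3 motifs, although their whole windows hold 2 and 1 CCAAT matches.

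The summed counts of the 3 libraries were 14652566, 15899566 and 16031875 at 0, 12 and 24 h in nuclear RNA and 22379595, 16537318 and 19537309 in cytoplasmic RNA. Of 10 microglial markers, 5 to 8 had a mean count of at least 10 in each group. Aif1 stayed under it, and Tyrobp had 15.0 in nuclear and 15.3 in cytoplasmic RNA at 0 h and 0.667 to 3.33 at 12 and 24 h. At that level were 1 or 2 of 3 oligodendrocyte markers and 0 or 1 of 3 neuronal markers. For erythroid markers it was 0 or 1 of 3, and for astrocyte markers 0 of 4. Mean counts were 21.3 to 84.3 for Mbp, 56 to 71 for Alas2 in nuclear RNA and 12.7 to 16.7 for Tubb3 in cytoplasmic RNA. Nuclear RNA markers (Malat1, Neat1, Kcnq1ot1 and Meg3) summed to 30914 to 42711 counts per 1000000 (CPM) in nuclear and 3059 to 5320 CPM in cytoplasmic groups, with 1 of the 4 at 0 in all groups but the nuclear one at 12 h. Mitochondrial and cytoplasmic markers summed to 1988 to 2459 CPM in nuclear and 41559 to 67570 CPM in cytoplasmic groups, and mt-Co1 and Eef1a1 made up most of these sums. Gapdh, another of these markers, ran the other way, with 84.6 to 121.7 CPM in nuclear and 28.3 to 33.6 CPM in cytoplasmic groups. The cytoplasmic group at 12 h had reads of the cardiac gene Actc1 (mean count 123) and the collagens Col1a1 (15.0) and Col3a1 (13.3), which were at mean counts of 0 to 2 in the other groups. The part of that RNA in the cytoplasmic 12 h results was not tested.

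Detection moved with how much of a gene's exonic sequence lies in only 1 of its annotated transcripts. Among protein-coding genes with several annotated transcripts, 63.0% of the 2023 with 80 to 100% of their exonic bases in only 1 transcript had a mean count of at least 10 in the nuclear 0 h group. Where 0 to 5% of the bases were in only 1 transcript, 8.17% of 955 genes did. How reads in several transcripts were counted is not given in the sources used here. For 13 of the 28 members, more than 50% of these single-transcript bases belonged to transcripts that encode no protein, such as retained introns. They are Hmgcs1, Mvk, Mvd, Fdps, Sqle, Lss, Tm7sf2, Lbr, Msmo1, Ebp, Dhcr7, Srebf1 and Srebf2, and the share was 100% for Sqle. For the other 15, among them Idi1, Cyp51, Hsd17b7, Insig1 and Stard4, at least 50% belonged to protein-coding transcripts.

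**Figure D1:**
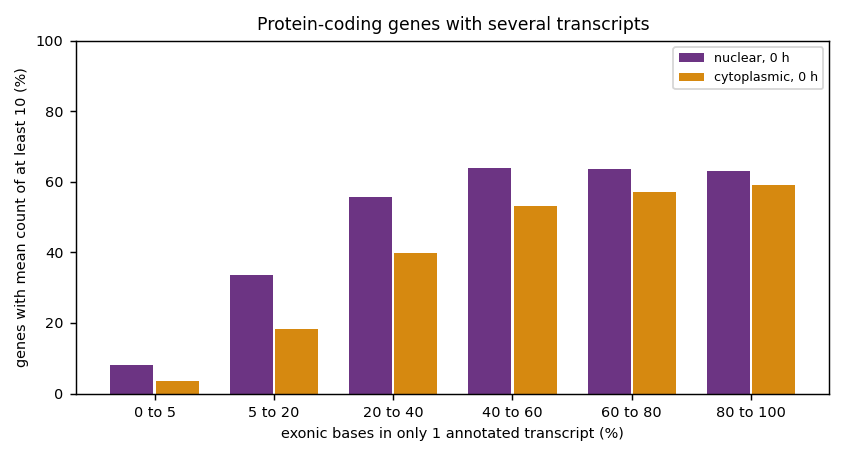
Percentage of protein-coding genes with several annotated transcripts that had a mean count of at least 10 (vertical axis), by the percentage of their exonic bases lying in only 1 transcript (horizontal axis), for the nuclear (left bars) and cytoplasmic (right bars) groups at 0 h. In the nuclear group the share was 8.17% in the lowest bin and 63.0% in the highest, and in the cytoplasmic group 3.56% and 59.0%.

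Oxyhemoglobin was followed by higher counts of several sterol synthesis enzymes and of the sterol sensor Insig1 in both fractions. In bulk RNA, more RNA per cell and more cells with that RNA cannot be told apart. In nuclear RNA at 12 h, 8 of the 26 members compared were at least 2-fold higher than at 0 h, namely Idi1, Fdps, Lss, Cyp51, Nsdhl, Hsd17b7, Insig1 and Stard4, and 1 was at least 2-fold lower, Fdft1. Among all 17295 genes compared, 7.66% were higher and 6.89% lower. A gene counts as higher or lower here where the ratio of scaled means was at least 2-fold and its 95% counting interval excluded a log2 ratio of 0; the interval covers counting error only, not differences between cultures. The median log2 ratio was 0.68 over the members compared and -0.01 over all genes. At 24 h against the same 0 h group, 7 of 26 members were higher (Idi1, Fdps, Lss, Cyp51, Nsdhl, Hsd17b7 and Stard4) and 0 were lower, against 7.93% and 5.73% of all genes, with a median of 0.69. Ebp and Scd1 had too few nuclear counts to be compared, Acat2 reached the limit on low values in both treated groups and not at 0 h, and Mvd at 24 h only. Among the 24 members at the limit at 0 h, the same 8 and 7 were higher at 12 and 24 h, against 5.58% and 5.73% of such genes. Scaling by total counts moved the nuclear medians of all genes by -0.20 at 12 h and -0.30 at 24 h, and members called higher then numbered 6 and 4. The median of the members compared, less that of all genes, was 0.70 and 0.71, which a scaling factor cannot alter, and 0.49 and 0.51 on the log2(TPM + 1) scale.

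In cytoplasmic RNA at 12 h, 6 of the 20 members compared were higher than at 0 h (Idi1, Cyp51, Msmo1, Hsd17b7, Acat2 and Insig1) and 0 were lower, against 11.9% and 8.65% of 11751 genes. The median log2 ratio was 0.56 over the members compared and -0.02 over all genes. At 24 h, 5 of 20 were higher (Idi1, Sqle, Msmo1, Hsd17b7 and Acat2) and 0 lower, against 11.3% and 5.78% of all genes, with medians of 0.67 and 0.01. The median of the members compared, less that of all genes, was 0.58 at 12 h and 0.66 at 24 h. With no filter on low counts these differences were 0.17 and 0.09. Another 8 members were not compared in the main setting. Sqle, Dhcr7 and Acat2 passed the limit on low values through treated groups only, so that the calls of Sqle and Acat2 come from members admitted by their own high group. Among the 17 members at the limit at 0 h, 5 were higher at 12 h and 3 at 24 h, against 6.38% and 5.29% of such genes. The nuclear and cytoplasmic comparisons have separate 0 h groups. At 12 h, Idi1, Cyp51, Hsd17b7 and Insig1 were higher in both, which is 50% of the nuclear and 66.7% of the cytoplasmic list. Over all 11085 genes compared in both fractions, the shared genes were 47.2% of the nuclear and 44.2% of the cytoplasmic list. At 24 h, Idi1 and Hsd17b7 were higher in both, 28.6% of the nuclear and 40% of the cytoplasmic list, against 41.4% and 42.2% over all genes. The members' shares rest on 2 to 4 genes and are not read as different from those of all genes. On the log2(TPM + 1) scale of the deposited TPM (length-adjusted transcript abundance), the all-gene medians moved by -0.21 and -0.45 in nuclear and by -0.49 and -0.41 in cytoplasmic RNA at 12 and 24 h. The members called higher were then Lss, Hsd17b7 and Stard4 in nuclear RNA at 12 h, Hsd17b7 and Stard4 there at 24 h, Msmo1 and Hsd17b7 in cytoplasmic RNA at 12 h and Hsd17b7 there at 24 h. The other calls against 0 h were lost on that scale, and the cause was not tested.

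**Figure D2:**
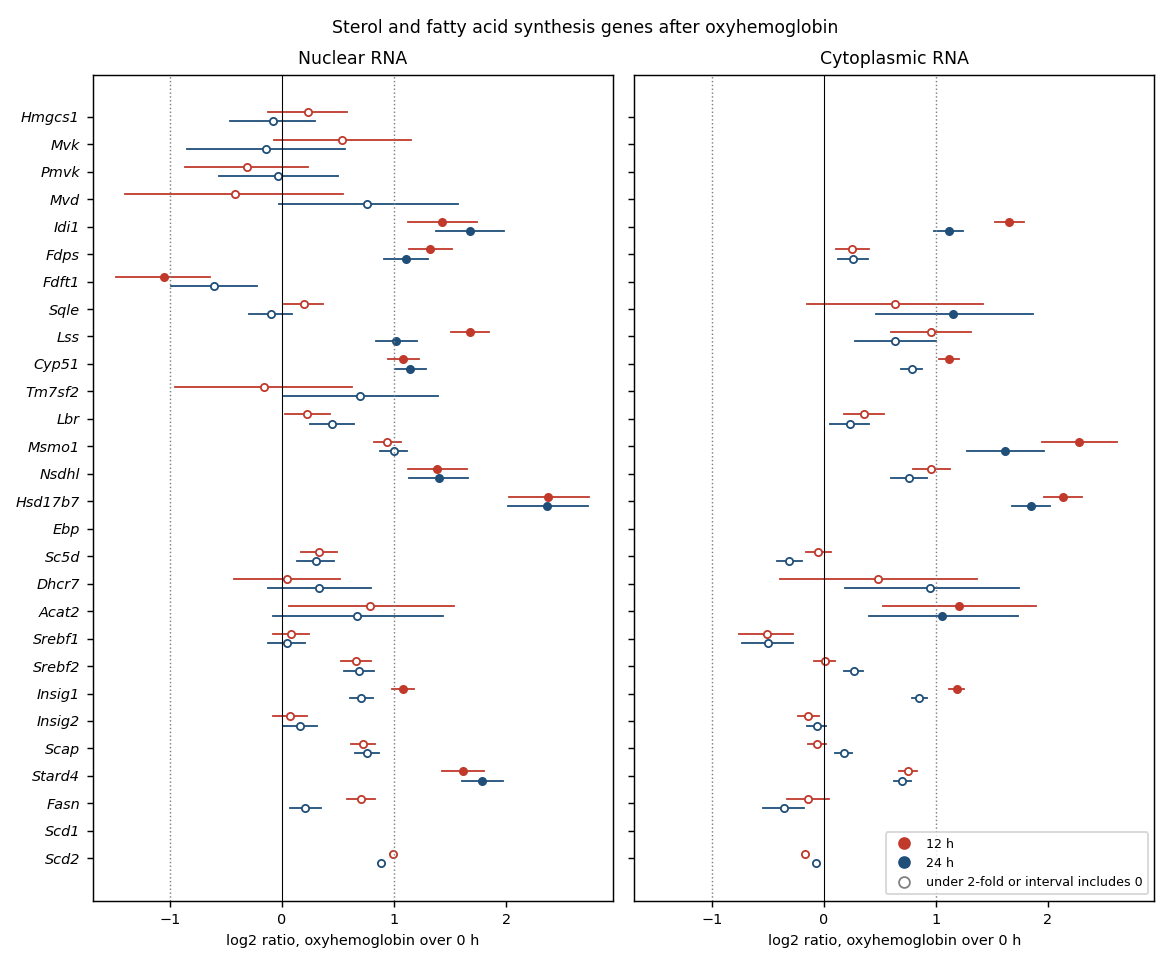
Log2 ratio of each member after oxyhemoglobin over 0 h (horizontal axis) in nuclear (left) and cytoplasmic (right) RNA at 12 h (red) and 24 h (blue), with 95% counting intervals as bars; filled points are at least 2-fold with an interval that excludes 0, dotted lines mark 2-fold, and members under the limit on low values have no point. Hsd17b7 lies at 1.85 to 2.38 in all 4 comparisons, while Hmgcs1 and Srebf1 lie within 0.23 of 0 in nuclear RNA.

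**Figure D3:**
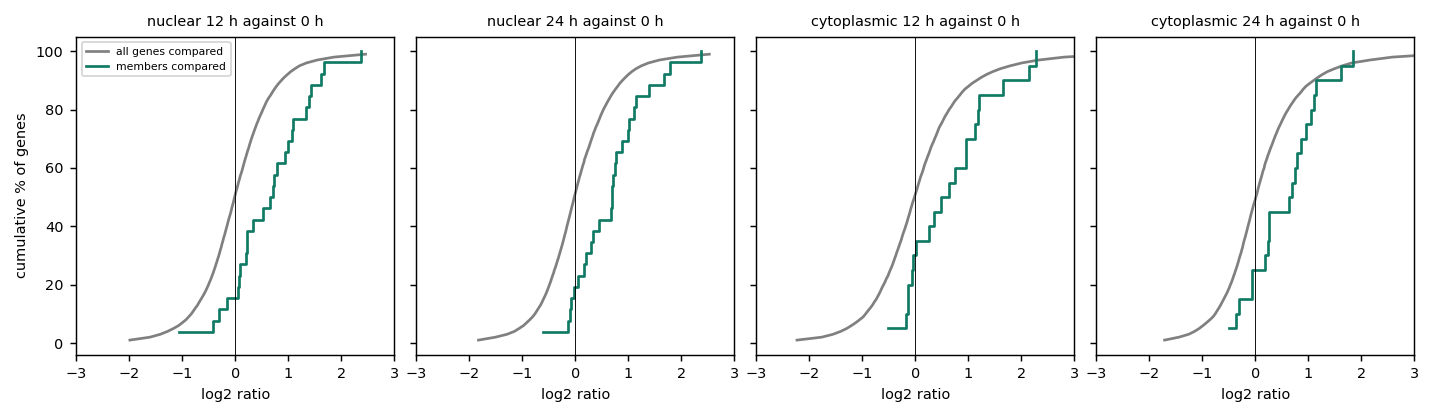
Cumulative percentage of genes (vertical axis) by log2 ratio (horizontal axis) for the members compared (green) and all genes compared (grey) in the 4 comparisons with 0 h. The member medians of 0.68, 0.69, 0.56 and 0.67 lie to the right of the all-gene medians, which are between -0.02 and 0.01.

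Hmgcs1, Mvk, Pmvk and Mvd, of the mevalonate steps, were not called in nuclear RNA at 12 or 24 h against 0 h. Hmgcs1, which makes HMG-CoA, had 7.93, 9.30 and 7.50 CPM in nuclear RNA at 0, 12 and 24 h. Its log2 ratio to 0 h was 0.23 at 12 h and -0.08 at 24 h, and both intervals included 0. In cytoplasmic RNA it had 0.312, 1.06 and 0.705 CPM (7, 17 and 14 summed reads), which is under the limit on low values, and was not compared. The kinases Mvk and Pmvk, which phosphorylate mevalonate in turn, and the decarboxylase Mvd stayed under 2-fold against 0 h in nuclear RNA, with 17 to 67 summed reads per group. Mvd was the 1 member called in the nuclear comparison of 24 h with 12 h, at 36 against 17 summed reads (log2 ratio 1.17, interval 0.31 to 2.10). It passed the limit on low values only through that 24 h group, so its high level there also admitted it to the comparison.

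The isoprenoid steps that follow held 2 of the members called higher in nuclear RNA, Idi1 and Fdps. Idi1 (ENSMUSG00000058258, chr13:8885501-8892451, plus strand) isomerises isopentenyl diphosphate to its allylic form. It had 7.56, 20.3 and 24.2 CPM in nuclear RNA at 0, 12 and 24 h, and 32.9, 103.7 and 71.3 CPM in cytoplasmic RNA. Both treated times were high in both fractions, with the cytoplasmic level highest at 12 h. The log2 ratios to 0 h were 1.43 (interval 1.12 to 1.74) and 1.68 (1.38 to 1.98) in nuclear RNA at 12 and 24 h, and 1.65 (1.53 to 1.78) and 1.11 (0.98 to 1.24) in cytoplasmic RNA. On the log2(TPM + 1) scale the cytoplasmic ones were 0.86 and 0.49. A share of 25.3% of its 50-base words also occurs in other genes, chiefly Gm13502, so its counts are uncertain to that extent. Fdps, which joins isoprenoid units into farnesyl diphosphate, had 19.6, 49.2 and 42.3 CPM in nuclear RNA and 37.4, 44.6 and 44.8 CPM in cytoplasmic RNA. Its nuclear log2 ratios were 1.32 at 12 h and 1.11 at 24 h (0.80 at 24 h under total counts), and its cytoplasmic ones 0.25 and 0.26. Exons of other genes, chiefly Gm43738 on the same strand, cover 26.7% of its exonic bases, so its counts are uncertain to that extent.

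Fdft1, which commits farnesyl diphosphate to squalene, was the member called lower. It had 9.52, 4.58 and 6.26 CPM in nuclear RNA at 0, 12 and 24 h, from 156, 71 and 91 summed reads. The log2 ratio was -1.05 at 12 h (interval -1.48 to -0.64) and -0.60 at 24 h (-0.99 to -0.22). The cathepsin gene Ctsb overlaps it on the other strand, and 18.3% of its exonic bases lie in exons of other genes. Sqle, the oxygenase that turns squalene into its epoxide, had 31.4, 35.9 and 29.3 CPM in nuclear RNA and 1.25, 1.93 and 2.77 CPM in cytoplasmic RNA. The cytoplasmic call at 24 h (log2 ratio 1.15, interval 0.47 to 1.86) rests on 55 against 28 summed reads. Lss, which cyclises that epoxide to lanosterol, had 23.1, 73.9 and 46.7 CPM in nuclear RNA and 5.08, 9.85 and 7.91 CPM in cytoplasmic RNA. Its nuclear log2 ratio was 1.68 at 12 h (interval 1.51 to 1.85) and 1.02 at 24 h (0.84 to 1.20), and the 24 h value was 0.71 under total counts. The cytoplasmic ratios of 0.96 and 0.64 were under 2-fold.

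Among the members compared, the largest ratio to 0 h in each of the 4 comparisons belonged to Hsd17b7 or Msmo1, which act where methyl groups are stripped from lanosterol derivatives. Hsd17b7 (ENSMUSG00000026675, chr1:169949535-169969241, minus strand) encodes the 3-keto reductase of this stage. It had 4.94, 25.6 and 25.5 CPM in nuclear RNA at 0, 12 and 24 h and 16.6, 73.0 and 59.8 CPM in cytoplasmic RNA. In each fraction both treated groups were above 0 h, and its nuclear levels at 12 and 24 h differed by a log2 ratio of -0.01 (interval -0.22 to 0.20). Against 0 h it was 5.19-fold higher at 12 h in nuclear RNA (log2 2.38, interval 2.03 to 2.74) and 4.39-fold higher in cytoplasmic RNA (log2 2.14, interval 1.97 to 2.31). At 24 h the folds were 5.15 and 3.60, and it was called higher under every scaling and TPM setting tried. Only 1.51% of its single-transcript bases lie outside protein-coding transcripts, and none of its exonic bases lie in exons of another gene.

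Msmo1, the C4-methylsterol oxidase, had 52.0, 99.7 and 103.8 CPM in nuclear RNA and 4.37, 21.1 and 13.4 CPM in cytoplasmic RNA. In cytoplasmic RNA it was 4.84-fold higher at 12 h (log2 2.28, interval 1.95 to 2.61) and 3.07-fold higher at 24 h (log2 1.62, against 0.64 on the log2(TPM + 1) scale). The nuclear log2 ratios, 0.94 and 1.00 (interval 0.87 to 1.12 at 24 h), fell just short of the threshold. Of its single-transcript bases, 86.1% lie outside protein-coding transcripts. Cyp51, the lanosterol demethylase, had 39.8, 84.2 and 87.9 CPM in nuclear RNA and 72.0, 156.1 and 123.9 CPM in cytoplasmic RNA. It was called higher in nuclear RNA at both times (log2 1.08 and 1.14) and in cytoplasmic RNA at 12 h (1.12) but not 24 h (0.78). On the log2(TPM + 1) scale the cytoplasmic 12 h value was 0.35. The nuclear values were 0.88 and 0.84 under total counts. Nsdhl, which removes the C4 carboxyl group, had 10.4, 27.2 and 27.5 CPM in nuclear RNA and 23.9, 46.5 and 40.4 CPM in cytoplasmic RNA. Its log2 ratios were 1.38 and 1.40 in nuclear RNA and 0.96 and 0.76 in cytoplasmic RNA.

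Of the reductases and desaturases that finish the ring, Tm7sf2, Lbr, Sc5d and Dhcr7 were not called at 12 or 24 h against 0 h in either fraction where compared. Tm7sf2 and Lbr, which share sterol C14-reductase activity, had nuclear log2 ratios of -0.16 and 0.23 at 12 h. At 24 h these were 0.70 and 0.45, and neither gene was called at either time. Sc5d, the C5 desaturase, had 35.9, 45.1 and 44.2 CPM in nuclear RNA and 68.4, 66.1 and 55.2 CPM in cytoplasmic RNA, with all ratios under 2-fold. Dhcr7, which reduces the last ring double bond, had cytoplasmic log2 ratios of 0.48 and 0.95 from 24 to 41 summed reads per group. Acat2, the cytosolic thiolase that starts the pathway, was called higher in cytoplasmic RNA at 12 h (log2 1.20, 51 against 31 summed reads) and 24 h (log2 1.06, 57 against 31 reads). A share of 39.1% of its 50-base words is found in other genes, chiefly Acat3, so its counts are uncertain.

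The regulators did not move as 1 group. Insig1, which retains Scap in the endoplasmic reticulum, had 80.2, 169.3 and 131.0 CPM in nuclear RNA and 130.8, 297.1 and 236.2 CPM in cytoplasmic RNA. At 12 h it was called higher in nuclear RNA (log2 1.08, interval 0.98 to 1.18; 0.88 under total counts) and in cytoplasmic RNA (log2 1.18, interval 1.12 to 1.25; 0.42 on the log2(TPM + 1) scale). Its paralogue Insig2 had log2 ratios between -0.14 and 0.16 in the 4 comparisons with 0 h. Stard4, a sterol carrier of the cytosol, had 19.6, 59.9 and 67.5 CPM in nuclear RNA and 111.5, 187.6 and 181.1 CPM in cytoplasmic RNA. Its nuclear log2 ratios were 1.61 (interval 1.43 to 1.80) and 1.79 (1.60 to 1.97), while the cytoplasmic ones, 0.75 and 0.70, were under 2-fold.

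Srebf2, the SREBP gene best known for sterol synthesis, had 47.4, 74.97 and 76.5 CPM in nuclear RNA and 99.5, 100.1 and 119.6 CPM in cytoplasmic RNA. Its nuclear log2 ratios were 0.66 and 0.69, with cytoplasmic ones of 0.01 and 0.27. Scap showed nuclear ratios of 0.73 and 0.76 beside cytoplasmic ratios of -0.06 and 0.18. Srebf1, the SREBP gene best known for fatty acid synthesis, had nuclear log2 ratios of 0.08 and 0.04. In cytoplasmic RNA its ratios were -0.51 (interval -0.76 to -0.27) and -0.50 (-0.73 to -0.28). None of Srebf1, Srebf2 and Scap reached 2-fold in these 4 comparisons.

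In the fatty acid branch, Fasn and Scd2 had positive nuclear and negative cytoplasmic log2 ratios at 12 h, none of which reached 2-fold. Fasn, the fatty acid synthase, had 50.4, 82.2 and 58.3 CPM in nuclear RNA and 26.7, 24.2 and 20.8 CPM in cytoplasmic RNA. Its log2 ratio at 12 h was 0.70 in nuclear RNA and -0.14 in cytoplasmic RNA. Scd2, a stearoyl-CoA desaturase, had 1482, 2943 and 2733 CPM in nuclear RNA and 2840, 2524 and 2711 CPM in cytoplasmic RNA. Its nuclear log2 ratio was 0.99 at 12 h (interval 0.97 to 1.01), just under 2-fold, and 0.88 at 24 h, beside -0.17 and -0.07 in cytoplasmic RNA. Per exonic kilobase, with all 6 groups scaled together, Scd2 had the highest level of the 28 members in every group, from 179.8 CPM per kilobase in nuclear RNA at 0 h to 794.6 CPM per kilobase in cytoplasmic RNA at 0 h. Its neighbour and paralogue Scd1 had 0.0437 to 0.151 CPM per kilobase, from 5 to 11 summed reads a group, and 4.56% of its 50-base words occur in other genes, chiefly Scd3.

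**Figure D4:**
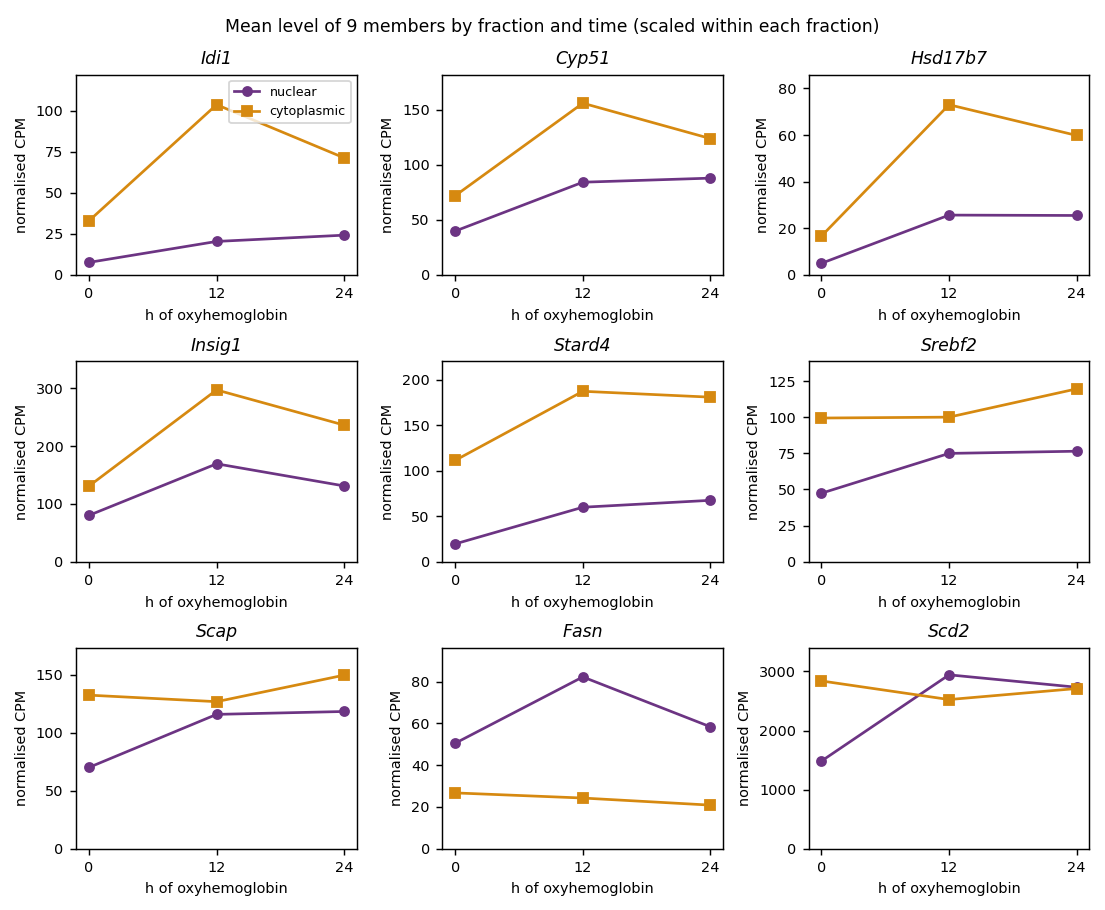
Normalised CPM (vertical axis, from 0) of 9 members at 0, 12 and 24 h of oxyhemoglobin (horizontal axis) in nuclear (circles) and cytoplasmic (squares) RNA; each point is the mean of 3 libraries, scaled within its fraction, so heights are comparable along a line and not between lines. Idi1, Cyp51, Hsd17b7 and Insig1 are higher at 12 h in both fractions, whereas Srebf2, Scap, Fasn and Scd2 have nuclear log2 ratios of 0.66 to 0.99 beside cytoplasmic ratios of -0.17 to 0.01.

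From 12 to 24 h few members moved by 2-fold. In nuclear RNA, 1 of 26 members was higher at 24 h than at 12 h, Mvd, and 0 were lower, against 1.95% and 1.12% of all genes. Mvd passed the limit on low values only through that 24 h group, so this call comes from a member admitted by its own high group. In cytoplasmic RNA, 0 of 20 were higher and 0 lower, against 3.29% and 1.66% of all genes. The largest decreases under 2-fold were in Msmo1 and Idi1 in cytoplasmic RNA (log2 -0.66 and -0.54) and in Mvk and Lss in nuclear RNA (-0.67 and -0.66). Fasn was lower at 24 h in nuclear RNA by a log2 ratio of -0.50 (interval -0.62 to -0.37), under 2-fold. These 2 comparisons share their 12 h groups with those against 0 h.

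Nuclear and cytoplasmic levels were set side by side after scaling all 6 groups together. RNA yield per cell is unknown, so the ratios describe relative distribution and not amounts per cell. At 0 h, 6 of 26 members were at least 2-fold higher in nuclear than in cytoplasmic RNA (Hmgcs1, Mvd, Fdft1, Sqle, Tm7sf2 and Msmo1) and 13 were lower, against 47.9% and 32.1% of 17902 genes. Hmgcs1, Mvd, Fdft1 and Tm7sf2 were under the cytoplasmic limit on low values in every group. They entered only through nuclear groups, so these calls come from members admitted by their own high fraction. Sqle was under the cytoplasmic limit at 0 h. The median log2 ratio was -1.09 over the members compared and 0.83 over all genes. At 12 h, 6 were higher and 13 lower, against 45.3% and 30.2% of all genes, and at 24 h 7 were higher and 13 lower, against 44.7% and 30% of all genes. Under total counts the all-gene medians moved by 1.37, 1.17 and 1.03 at 0, 12 and 24 h, and 12 members were then higher at each time and 5, 4 and 5 lower. The median of the members compared, less that of all genes, was -1.92, -1.72 and -1.76, and -1.01, -0.64 and -0.79 on the log2(TPM + 1) scale.

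The lowest nuclear over cytoplasmic ratio at 0 h was that of Stard4, with 13.0 CPM in nuclear and 170.6 CPM in cytoplasmic RNA (log2 -3.72, interval -3.89 to -3.55). Idi1 had 5.01 CPM in nuclear and 50.3 CPM in cytoplasmic RNA (log2 -3.33), and Hsd17b7 3.27 and 25.4 CPM (log2 -2.96). At the other end stood Hmgcs1, with 5.25 CPM in nuclear and 0.477 CPM in cytoplasmic RNA (log2 3.46), and Sqle, with 20.8 and 1.91 CPM (log2 3.45). Of the annotated single-transcript bases, 73.3% in Hmgcs1 and 100% in Sqle lie outside protein-coding transcripts, and these bases are 28.1% and 40.7% of the exonic bases. Mvd had 24 summed reads in nuclear and 0 in cytoplasmic RNA at 0 h, which makes it at least 4.75-fold higher in nuclear RNA when a floor of 3 reads is used for the cytoplasmic group as a whole.

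These ratios moved with the kind of annotated single-transcript sequence. Of the 14 members compared whose single-transcript bases are mostly protein-coding, 1 was higher in nuclear RNA at 0 h (Fdft1) and 10 were lower, with a median log2 ratio of -2.13. Of the 12 whose bases are mostly outside protein-coding transcripts, 5 were higher and 3 lower, and their median was 0.96. Hmgcs1, Mvd and Tm7sf2 among these 5, and Fdft1 among the 14, passed the limit on low values only through nuclear groups. Part of the contrast therefore rests on members admitted by their own high fraction. Among all protein-coding genes with several transcripts, the median was -1.60 for the 3396 genes with up to 25% of these bases outside protein-coding transcripts and 1.60 for the 3073 with over 75%. The 3 lower members of the second group were Srebf2 (-2.28), Fdps (-2.14) and Lbr (-1.23). The part of the sequence type in any single member's ratio was not tested.

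**Figure D5:**
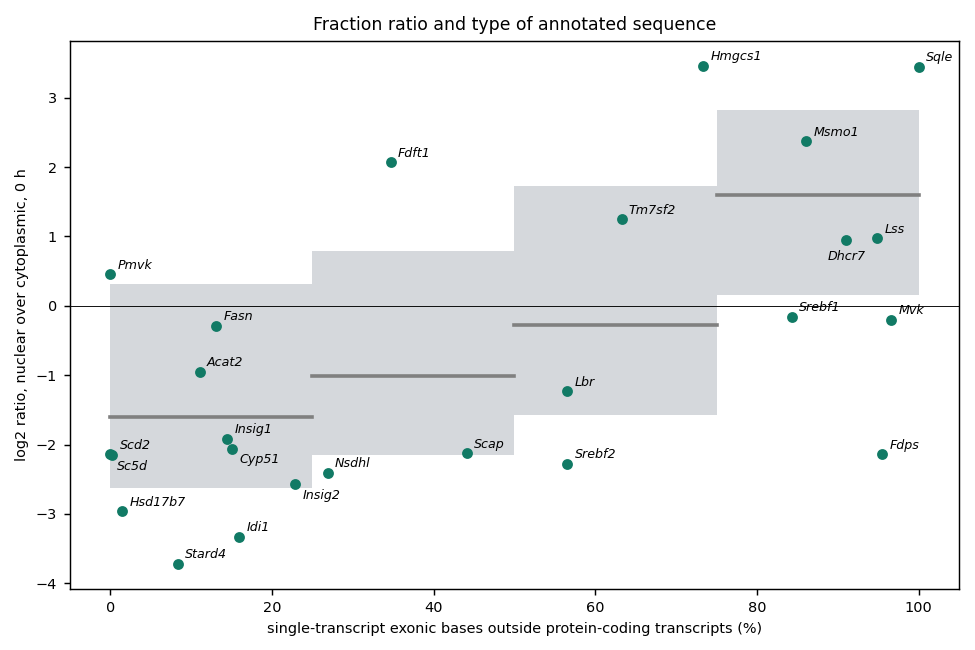
Log2 ratio of nuclear over cytoplasmic RNA at 0 h (vertical axis) by the percentage of a gene's single-transcript exonic bases outside protein-coding transcripts (horizontal axis); points are members with reads in both fractions, and grey lines and boxes are the median and quartiles of all protein-coding genes with several transcripts in 4 bins. The all-gene median was -1.60 in the lowest bin and 1.60 in the highest, with Hmgcs1 and Sqle above 3, Fdps at -2.14 and Srebf2 at -2.28.

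For most members, the nuclear over cytoplasmic ratio was not called as changed after oxyhemoglobin. At 12 h against 0 h, 3 of 25 members shifted at least 2-fold toward nuclear RNA (Mvk, Fdps and Scd2) and 2 toward cytoplasmic RNA (Hmgcs1 and Msmo1), against 7.37% and 7.5% of 16544 genes. Mvk and Hmgcs1 were under the cytoplasmic limit on low values in every group. Their mean cytoplasmic counts at 0 and 12 h were 9.33 and 4.33 for Mvk and 2.33 and 5.67 for Hmgcs1. The median change was 0.28 over the members compared and 0.18 over all genes. Scd2 had nuclear over cytoplasmic log2 ratios of -0.94 at 12 h and -2.14 at 0 h, a change of 1.20 (interval 1.17 to 1.23). Msmo1 went the other way, with ratios of 1.07 at 12 h and 2.37 at 0 h, a change of -1.30 (interval -1.64 to -0.95). At 24 h against the same 0 h groups, Stard4 shifted toward nuclear RNA (1.10, interval 0.90 to 1.29) and Sqle toward cytoplasmic RNA (-1.24, interval -1.92 to -0.56), 1 member each way, against 6.07% and 9.49% of all genes. The Sqle shift rests on mean cytoplasmic counts of 9.33 at 0 h and 18.3 at 24 h. The median change at 24 h was 0.43 over the members compared and 0.07 over all genes, with 18 members above 0 and 7 below. The member median less that of all genes was 0.36, and 0.34 on the log2(TPM + 1) scale. Under total counts the members shifted toward nuclear RNA numbered 1 at 12 h and 0 at 24 h.

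Other genes of lipid metabolism were read from 4 lists of related genes, also chosen with earlier results of these data known. Of 21 other fatty acid genes compared in nuclear RNA, 3 were higher at 12 h than at 0 h and 0 lower, beside 7.66% and 6.89% of all genes, and their median log2 ratio was 0.41. They were Slc25a1, which exports citrate from mitochondria (1.34), Me1, the malic enzyme that supplies NADPH (1.12), and the elongase Elovl6 (1.08). Under total counts Me1 (0.91) and Elovl6 (0.88) were under 2-fold. In cytoplasmic RNA at 12 h, 1 of 17 was higher and 2 were lower, beside 11.9% and 8.65% of all genes. The median there was -0.31, and Tecr, the enoyl reductase of elongation, had a log2 ratio of -1.17. At 24 h, 2 of 21 were higher in nuclear RNA and 1 of 17 in cytoplasmic RNA, beside 7.93% and 11.3% of all genes. In each fraction 0 were lower at 24 h, beside 5.73% and 5.78%. In the isoprenoid branch, 1 of 13 genes was higher in nuclear RNA at both times, Nus1, a subunit of the dolichol synthase (1.17 and 1.35; 0.97 at 12 h under total counts), which is a share near that of all genes. In cytoplasmic RNA, 0 of 11 were called against 0 h at either time. Of all genes there, 11.9% were higher and 8.65% lower at 12 h, and 11.3% and 5.78% at 24 h.

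Of 17 genes for SREBP cleavage, sterol sensing and degradation, 2 were higher in nuclear RNA at 12 h than at 0 h, beside 7.66% of all genes. At 24 h 0 were higher, beside 7.93%. The 2 included Ube2g2 (log2 ratio 1.02, and 0.82 under total counts), a ubiquitin-conjugating enzyme of the endoplasmic reticulum. In cytoplasmic RNA, 0 of 16 genes were called at 12 h, beside 11.9% of all genes higher and 8.65% lower. At 24 h, 1 of 16 was higher and 1 lower, beside 11.3% and 5.78% of all genes. The lower gene was Aup1, a lipid droplet protein that recruits Ube2g2 (-1.24). In the list for sterol transport, esterification and efflux, 4 of 18 genes were lower in cytoplasmic RNA at 12 h and 4 at 24 h, beside 8.65% and 5.78% of all genes, and 0 were higher at either time. At 12 h the median was -0.71, and those lower were Mylip, a ubiquitin ligase that liver X receptors induce (-1.71), the cholesterol esterifying enzyme Soat1 (-1.25), the liver X receptor Nr1h2 (-1.10) and the lipid transfer protein Osbpl8 (-1.03). At 24 h the cholesterol exporter Abca1 was lower at -1.09, beside Mylip, Osbpl8 and Soat1. In nuclear RNA, 1 of 19 genes of this list was lower at 12 h and 0 at 24 h, beside 6.89% and 5.73% of all genes. The nuclear medians were 0.01 and -0.08, and 0 were higher at either time.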

How the data were processed

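RNA of nuclear and cytoplasmic fractions was measured in 18 libraries, 3 per group. Per the submitters' processing notes, the tools included HISAT2 2.2.0, featureCounts and DESeq2, with build GRCm38. Per the labels' protocols, libraries were made by tagmentation. Not given in the sources used here are the strand setting, the annotation release and the handling of reads in several transcripts. The deposited count table holds 6 columns. Every value times 3 was whole within 0.001, and each column was taken to be a mean count over 3 libraries. The authors also deposited TPM values, 1 table per group, which served as an alternative. Because no column holds a single library, the planned tests were replaced by a comparison of sizes, with no p-value or SD. The number of per-sample columns not used was 0. Whether libraries came from separate cultures is not stated.

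Scaling used TMM factors (trimmed mean of M-values, leaving out 30% of log ratios and 5% of mean levels at each end), within each fraction for times and over all 6 groups for fraction ratios. A gene was compared where its unscaled CPM (count over the group's own total) in 1 group reached that of a mean count of 10 at median depth (1.89 CPM nuclear, 1.54 CPM cytoplasmic, 1.84 CPM over all groups). Intervals are 95% Clopper-Pearson intervals on summed reads, with a normal approximation for changes of fraction ratios. A group at 0 was set to a floor of 3 reads over the group, which corresponds to 0.134 to 0.205 CPM. Calls were made over the whole table. The tools were Python 3.11.15 with scipy 1.17.1, pandas 2.3.3, numpy 2.4.6 and, for plots, matplotlib 3.10.9, and the procedure was tested on simulated data. Symbols matched 55141 of the 55487 identifiers.

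The members and lists were chosen with earlier results of these data known. All members could be named. From each related list, up to 4 called genes with the largest ratios and at least 5 CPM in 1 group could be named in each comparison. Alternatives were total counts or median of ratios for scaling, log2(TPM + 1) or log2(TPM + 0.1), which understate changes of low genes, no filter, and a 1.5-fold threshold. Promoter windows were also searched from 150 bases before the start. Counting only members with mostly protein-coding single-transcript sequence, or only members at the limit on low values at 0 h, was added after seeing the data.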

Additional observations from a re-analysis of the deposited data

How the results depend on the processing

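No paired analysis was possible because the count table holds 1 mean per group, and for the same reason leaving out replicates, the planned count tests and the replicate block could not be run. Values below give members higher and lower. Main counts are in the text, settings not named gave counts within 1.5 times of them, and the cause of each difference was not tested. With total counts, members called higher were 4 in nuclear RNA at 24 h against 0 h. For nuclear over cytoplasmic RNA they were 12 higher at each time and 5, 4 and 5 lower at 0, 12 and 24 h. For changes of that ratio they were 1 higher at 12 h, and 0 higher and 2 lower at 24 h. Lbr reversed to 0.14 at 0 h and Fdps to 0.15 at 12 h. Median of ratios gave 3 higher for nuclear over cytoplasmic RNA at 12 h and 2 higher for the ratio change at 24 h. No filter gave 5 and 3 higher for the ratio changes at 12 and 24 h.

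With log2(TPM + 1), nuclear RNA against 0 h had 3 higher and 0 lower at 12 h and 2 higher at 24 h, cytoplasmic RNA had 2 and 1 higher, and nuclear 24 h against 12 h had 0. Nuclear over cytoplasmic RNA had 4 lower at 12 h, and 3 higher and 5 lower at 24 h, with Fdps reversed to 0.16 at 12 h. The ratio changes had 7 higher and 0 lower at 12 h and 0 and 0 at 24 h. With log2(TPM + 0.1), nuclear RNA at 24 h against 0 h had 3 higher and 1 lower, cytoplasmic RNA had 2 higher and 1 lower at 12 h and 1 higher and 1 lower at 24 h, and nuclear 24 h against 12 h had 0 higher. Nuclear over cytoplasmic RNA had 12 higher and 4 lower at 12 h and 7 lower at 24 h, with Fdps reversed to 0.17 at 12 h, and the 12 h ratio change had 9 higher and 0 lower.

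A 1.5-fold threshold gave 14 higher in nuclear RNA at 12 h, 13 higher and 1 lower at 24 h, 2 higher and 2 lower at 24 h against 12 h, 11 higher in cytoplasmic RNA at 24 h, 1 lower there at 24 h against 12 h, and 9 higher at 12 h and 6 higher and 2 lower at 24 h for the ratio changes. Members at the limit on low values at 0 h, a subset also chosen after seeing the data, gave 3 higher in cytoplasmic RNA at 24 h against 0 h. Members with mostly protein-coding single-transcript sequence, a subset chosen after seeing the data, gave 0 higher in nuclear 24 h against 12 h and 3 higher in cytoplasmic RNA at 24 h. For nuclear over cytoplasmic RNA they gave 1 higher at each time, and for ratio changes 1 higher and 0 lower at 12 h and 0 lower at 24 h.

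Over the 4 comparisons with 0 h, the related lists called these numbers higher and lower. Fatty acid genes had 4 and 4 with total counts and 0 and 6 with log2(TPM + 1). Isoprenoid genes had 1 and 1, then 0 and 1. SREBP machinery genes had 1 and 3, then 0 and 5. Sterol transport genes had 15, then 22 lower. The percentage of all calls that were higher was 52.6% in nuclear RNA at 12 h and 58.1% at 24 h, but 31.7% and 27.5% with total counts and 31.7% and 12.8% with log2(TPM + 1). In cytoplasmic RNA at 12 and 24 h it was 58.0% and 66.2%, but 15.5% and 21.6% with log2(TPM + 1). For nuclear over cytoplasmic RNA at 0 h it was 59.9%, but 79.0% with total counts. A shorter promoter window found TCACNCCA in 1 member (4.55%), against 3.33% of all genes. Some members, such as Mvd, Ebp and Scd1, had few reads, and the cause was not tested.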
